A study of Mus musculus with 4 samples.

Results

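The comparison described here set MetE14/3 against WTE14/1, the 2 resident liver stem cell (RLSC) lines among the 4 arrays of the study. MetE14/3 was derived from the liver of a 14 dpc embryo carrying cyto-Met, a transgene for a truncated, constitutively active form of the hepatocyte growth factor receptor Met, and is clone B2, so it stands for 1 clone. WTE14/1 came from the liver of a wild-type embryo of the same age; its title gives that name while its source name reads WT E14/3, and the title is used. Cells of both lines were picked for palmate morphology in the culture conditions that yield MMH lines, grown on collagen I in medium with serum, and frozen after about 50 generations. The yardstick was MMH-D3, a differentiated hepatocytic line measured on 2 arrays. MMH lines were first established from livers that express cyto-Met, so by that origin MMH-D3 shares the transgene with MetE14/3; its own labels do not state a genotype, and the labels name no strain, sex or transgene promoter for any array. Genotype, embryo, clone and array all differed between MetE14/3 and WTE14/1, with 1 array a side, so their parts in any difference cannot be told apart, and the comparison is a description with no replicate check.

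Liver progenitors arise from foregut endoderm and share with gut epithelium a set of adhesion, galectin and brush border genes. HNF4-alpha, HNF1 and the FOXA proteins sustain the epithelial hepatocyte program, while SNAIL and ZEB repressors act on E-cadherin and junction genes during the passage to a mesenchymal state. Imprinted genes, read from 1 parental allele, are abundant in fetal tissue, and many are silenced after birth. These points are background and were not measured here.

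Each array reported a linear intensity for 45101 probe sets. The mean signal without the extremes was 200.001 on every array, and the medians ran from 16.9 to 27.98. Poly-A control probe sets, which read RNA spiked in before labelling, were 10.9-fold brighter (median of 24) in MetE14/3 than in WTE14/1 and 10.8-fold brighter on MMH-D3 array 1 than on array 2. Hybridization controls differed by 0.758-fold and 0.956-fold in the same order, and the values of WTE14/1 and MMH-D3 array 2 alone carry more than 1 decimal. MMH-D3 array 1 minus array 2 is therefore the yardstick in which the control signals point the same way as in MetE14/3 minus WTE14/1. Nothing in the labels ties the MMH-D3 arrays to separate cultures. What separates these arrays may be technical or may lie in the cells, and was not tested. Their differences included the lists of DNA replication and of mitosis genes, with medians of 2.32 and 2.04. Alb read 44.7 on array 1 and 440.5 on array 2.

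Differences below are of log2(signal + 4) after quantile normalization, MetE14/3 minus WTE14/1, so a negative value is higher in WTE14/1; the added 4 makes the differences of dim genes too small. Of 18193 genes with a probe set, 12598 had a mean over the 4 arrays above the 40th percentile, and 12147 of these were autosomal. A gene near background on 3 arrays passed this filter only through the array on which it was bright, so counts among genes that passed are descriptions. Without normalization beyond the deposited scaling the median of all these genes moved from -0.01 to -0.12, and with the arrays shifted to a common median it moved to 0.32.

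At least 4-fold higher signal was found for 343 genes in MetE14/3 (2.82% of those analysed) and for 267 in WTE14/1 (2.2%). Without further normalization the split turned to 275 and 374 genes, so which line holds more of them depends on the scaling. The total of 610 genes (5.02%) lay below the 722 genes (5.94%) that were as far apart between the MMH-D3 arrays, 367 higher on array 1 (3.02%) and 355 higher on array 2 (2.92%). At 2-fold, 1242 genes (10.2%) were higher in MetE14/3 and 1108 (9.12%) in WTE14/1. At larger folds the lines were further apart than the MMH-D3 arrays. Between the lines 229 genes were at least 8-fold, 97 at least 16-fold and 38 at least 32-fold apart, and between the MMH-D3 arrays 148, 19 and 6. In the plot of counts by fold the curves cross between 4-fold and 8-fold.

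**Figure D1:**
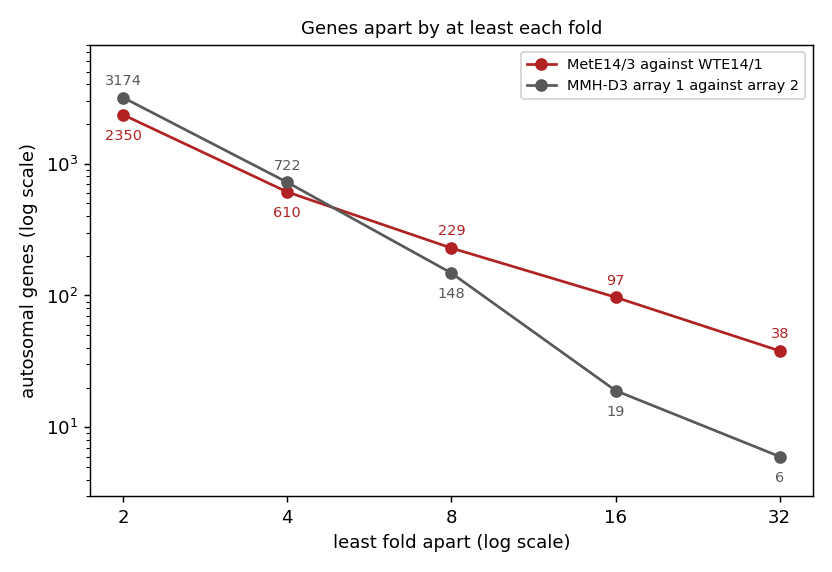
Number of autosomal genes (vertical, log scale) at least the given fold apart (horizontal, log scale) between MetE14/3 and WTE14/1 (red) and between the MMH-D3 arrays (grey). The MMH-D3 pair has more genes past 2-fold (3174 against 2350), and the lines have more past 16-fold (97 against 19).

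The genes far apart between the lines were also set beside the MMH-D3 pair. Of the 343 genes higher in MetE14/3, 211 (1.74% of genes analysed) had MMH-D3 arrays within 2-fold of each other, 18 were also at least 4-fold higher on MMH-D3 array 1 and 28 on array 2. Among the 267 genes higher in WTE14/1, 174 (1.43%) were within 2-fold between the MMH-D3 arrays, 10 were at least 4-fold higher on array 1 and 18 on array 2. Over all genes 26.1% were more than 2-fold apart between the MMH-D3 arrays, a smaller share than among the genes far apart between the lines. Across the 12147 genes the differences within the pairs had a Pearson correlation of 0.0722 and a Spearman correlation of 0.142; the pairs share no array but were normalized together, and genes are not independent replicates. When the MMH-D3 difference was subtracted from the line difference gene by gene, 768 genes (6.32%) lay at least 4-fold towards MetE14/3 and 616 (5.07%) towards WTE14/1.

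**Figure D2:**
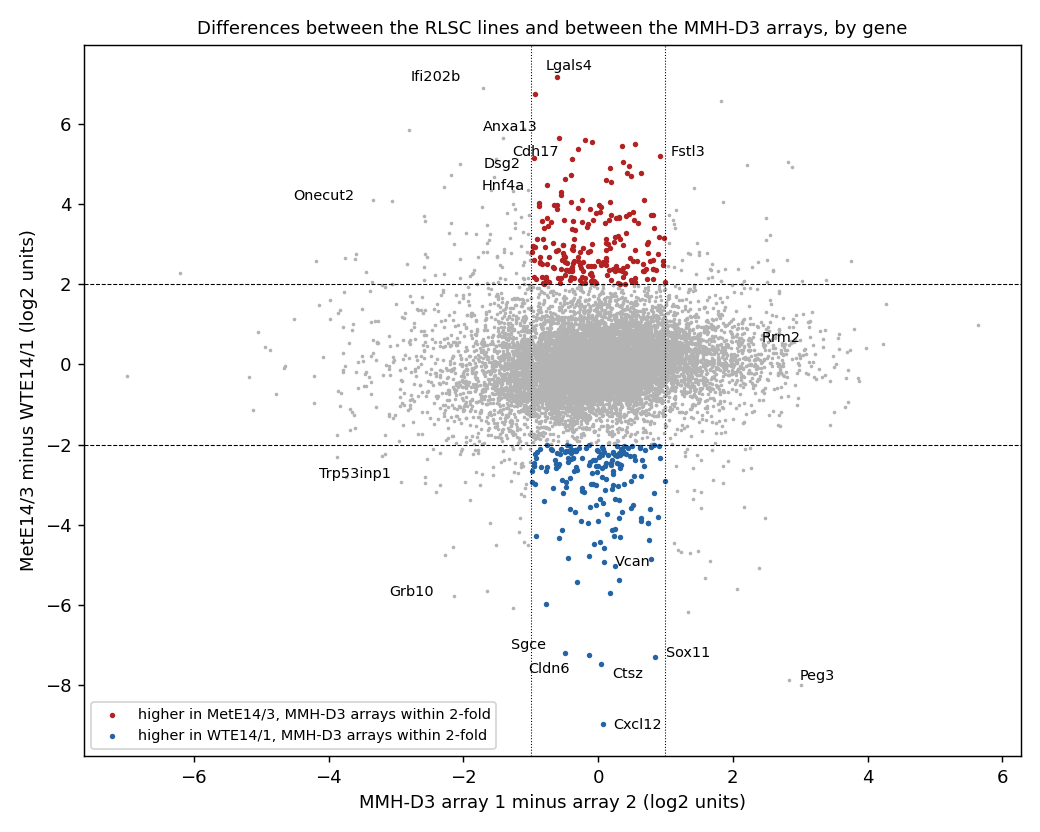
Each point is 1 autosomal gene, with its log2 difference between the MMH-D3 arrays (horizontal) and between the lines (vertical); dashed lines mark 4-fold between the lines and dotted lines 2-fold between the MMH-D3 arrays. Lgals4 and Cxcl12, at 7.16 and -8.96, lie near the vertical axis, while Peg3 and Onecut2 differed also between the MMH-D3 arrays.

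The arms of the comparison also differed in where MMH-D3 lay. Among the 343 genes higher in MetE14/3, both MMH-D3 arrays were nearer to MetE14/3 for 231 (67.3%), nearer to WTE14/1 for 65 and split for 47. Among the 267 genes higher in WTE14/1, both were nearer to WTE14/1 for 110 (41.2%) and nearer to MetE14/3 for 113 (42.3%). A gene bright in MMH-D3 passed the filter more easily, which raises the counts of genes that MMH-D3 shares with the brighter line. Without the filter the counts were 238 of 406 and 128 of 389. The WTE14/1 count moved by more than 1.5 times with the pseudocount, from 169 of 350 at 1 to 39 of 150 at 16.

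The genes Cldn2, Lgals4, Hnf4a, Cxcl12, Peg3 and Cldn6 had been given to mark the lines, and their signals are a description. Cldn2, a pore-forming claudin on the X chromosome, read 3981 in MetE14/3, 4.71 in WTE14/1, and 3039 and 2271 on MMH-D3 arrays 1 and 2. Lgals4, Hnf4a and Cldn2 were brighter in MetE14/3 and on both MMH-D3 arrays than in WTE14/1. Cxcl12, the chemokine that binds CXCR4, read 1.00 in MetE14/3, 2417 in WTE14/1, and 5.30 and 6.64 on MMH-D3 arrays 1 and 2. Cldn6, a claudin of embryonic epithelium, read 1.40 in MetE14/3, 807 in WTE14/1, and 2.50 and 4.10 on MMH-D3 arrays 1 and 2. For both, WTE14/1 was the bright array and the other 3 lay below the signal of 11.7 that matches the filter. Peg3, a paternally expressed zinc finger gene, read 5.90 in MetE14/3, 2265 in WTE14/1, and 244 and 35.5 on MMH-D3 arrays 1 and 2.

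Secreted products that define hepatocytes were close to background in both lines, while Hnf4a was present in MetE14/3. Albumin (Alb) gave 1.70 in MetE14/3, 2.91 in WTE14/1, and 44.7 and 440.5 on MMH-D3 arrays 1 and 2. Transthyretin (Ttr) gave 4.60 in MetE14/3, 8.98 in WTE14/1, and 19.8 and 144 on MMH-D3 arrays 1 and 2. The haematopoietic markers Ptprc, Cd68, Csf1r and Hba-a1 together summed to 93.4 in MetE14/3, 125 in WTE14/1, and 89.4 and 116 on MMH-D3 arrays 1 and 2, with Hba-a1 at 2.00 and 3.29 in the lines. The endothelial markers Pecam1, Cdh5 and Kdr summed to 28.5 in MetE14/3, 45.3 in WTE14/1, 11.3 on MMH-D3 array 1 and 51.8 on array 2. The part of other cells in the differences below was not tested. The epithelial markers Cdh1, Epcam, Krt8 and Krt18 summed to 18725 in MetE14/3 and 12591 in WTE14/1, most of it from the keratins. Vimentin (Vim), the intermediate filament of mesenchymal and cultured cells, was bright everywhere, at 13466 in MetE14/3, 17248 in WTE14/1, and 13957 and 14172 on MMH-D3 arrays 1 and 2. Both lines thus carried simple epithelial keratins together with vimentin. The mesenchymal markers Vim, Acta2, Col1a1 and Snai1 summed to 15131 in MetE14/3 and 26272 in WTE14/1. Vim differed by 0.04, Acta2 by -2.37, Snai1 by -0.59 and Col1a1, which was below the filter, by -0.55. Met itself, the receptor whose truncated form MetE14/3 carries, read 963 in MetE14/3, 1148 in WTE14/1, and 1116 and 1146 on MMH-D3 arrays 1 and 2 (difference -0.31), so the 4 arrays lay close together; whether its probe sets read the transgene is not given in the sources used here. Hgf, the ligand of Met, did not pass the filter.

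Several of the genes furthest towards MetE14/3 are typical of gut and gastric epithelium. Of 26 such genes on the array 15 were bright enough to be analysed, and 6 of these were at least 4-fold higher in MetE14/3 and none in WTE14/1, against 2.82% and 2.2% of all genes, which are the shares to set beside every list count below. Their median difference was 0.66. The list was spread between the MMH-D3 arrays as well, with a median of -0.64 and 5 of the 15 genes at least 4-fold higher on array 2, against 2.92% of all genes. Lgals4, a galectin of the intestinal lining, read 2481 in MetE14/3, 17.2 in WTE14/1, and 8578 and 13971 on MMH-D3 arrays 1 and 2, a difference of 7.16. Lgals2, a second galectin of gut epithelium, read 2293 in MetE14/3, 54.1 in WTE14/1, and 12658 and 16292 on MMH-D3 arrays 1 and 2 (5.60, both probe sets of that sign). MetE14/3 thus stood between WTE14/1 and MMH-D3 for both galectins. Anxa13, an annexin of the apical membrane, read 907 in MetE14/3, 17.9 in WTE14/1, and 7718 and 11737 on MMH-D3 arrays 1 and 2 (5.65). Cdh17, the liver-intestine cadherin, read 1515 in MetE14/3, 42.3 in WTE14/1, and 5654 and 6823 on MMH-D3 arrays 1 and 2 (5.37). Krt20, a keratin of gut lining cells that is counted below with the keratins, read 991 in MetE14/3, 32.1 in WTE14/1, and 1414 and 3812 on MMH-D3 arrays 1 and 2 (5.12), in the same order again. Vil1, an actin bundler of microvilli, followed with 113 in MetE14/3 and 13.3 in WTE14/1 (3.02), and Fabp2, an intestinal fatty acid binding protein, with 16.4 in MetE14/3 and 1.71 in WTE14/1 (2.05). The regulator of intestinal identity Cdx2 was close between the lines, at 370.3 in MetE14/3 and 245 in WTE14/1 (0.66). Not all of the group leaned this way: the trefoil factor Tff1, a mucus-associated peptide, read 161 in MetE14/3 and 465 in WTE14/1 (-1.50), and Tspan8, bright in MMH-D3 at 7411 and 11408, read 324 in MetE14/3 and 277 in WTE14/1.

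Promoter windows are shown for Lgals4, Lgals2, Hnf4a and Cldn6, picked by hand from the genes at least 4-fold apart. Other genes lay further apart and are not shown. The regulators HNF4-alpha, HNF1, SNAIL and ZEB, named above, have known core letters that can be searched in the windows. Each window runs from 250 bases before to 50 after the gene start, from RefSeq with build GRCm38.p6. Capitals mark CAAAGTC (HNF4 core), GTTAAT (HNF1 half-site) or CACCTG (E-box of SNAIL and ZEB) on either strand, so a match in reverse is capitalised as its reverse complement; no matches overlap in these windows. Lgals4 lies at chr7:28833544-28833843 on the plus strand and has 1 E-box. Lgals2 lies at chr15:78855480-78855779 on the minus strand and has 1 HNF4 core and 1 HNF1 half-site. Of the Hnf4a windows the first, at chr2:163506607-163506906, has no match and is not shown. The second lies at chr2:163546905-163547204 on the plus strand, with 1 E-box and 2 HNF1 half-sites in reverse. Cldn6, bright in WTE14/1 only, lies at chr17:23679115-23679414 on the plus strand and has 2 reverse E-boxes.
Lgals4: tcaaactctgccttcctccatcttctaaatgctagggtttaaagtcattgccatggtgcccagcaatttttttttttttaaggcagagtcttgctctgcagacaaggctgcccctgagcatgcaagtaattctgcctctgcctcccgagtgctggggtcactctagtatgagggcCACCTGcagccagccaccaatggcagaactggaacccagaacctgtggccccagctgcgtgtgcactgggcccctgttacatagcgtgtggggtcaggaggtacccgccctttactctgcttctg
Lgals2: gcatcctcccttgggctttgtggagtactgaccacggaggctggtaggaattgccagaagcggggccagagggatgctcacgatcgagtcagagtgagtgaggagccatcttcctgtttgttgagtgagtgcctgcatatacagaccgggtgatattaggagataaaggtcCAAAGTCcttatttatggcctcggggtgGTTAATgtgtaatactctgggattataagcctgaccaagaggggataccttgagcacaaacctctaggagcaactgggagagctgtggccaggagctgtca
Hnf4a: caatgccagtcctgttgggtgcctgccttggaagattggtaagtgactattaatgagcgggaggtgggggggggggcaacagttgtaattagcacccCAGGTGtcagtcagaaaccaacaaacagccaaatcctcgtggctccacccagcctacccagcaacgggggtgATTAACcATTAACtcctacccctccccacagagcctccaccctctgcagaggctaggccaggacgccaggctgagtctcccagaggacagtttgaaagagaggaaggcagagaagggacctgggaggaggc
Cldn6: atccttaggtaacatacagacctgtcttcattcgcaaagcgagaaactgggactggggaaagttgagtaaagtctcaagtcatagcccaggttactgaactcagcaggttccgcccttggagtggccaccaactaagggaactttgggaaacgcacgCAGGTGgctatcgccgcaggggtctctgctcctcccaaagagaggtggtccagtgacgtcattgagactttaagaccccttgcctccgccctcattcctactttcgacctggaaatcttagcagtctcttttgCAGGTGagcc

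Over all genes with a window, 4.55% of 9812 held an HNF4 core, 5.35% an HNF1 half-site and 21.4% an E-box. The HNF4 core was found in 26 of 250 genes higher in MetE14/3 (10.4%) and in 16 of 207 higher in WTE14/1 (7.73%). The HNF1 half-site was found in 9.2% and 10.1% of the same sets, and the E-box in 30% and 21.7%. A match is a string of letters in a window, not a bound site, and the differences were not tested.

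Cell junction genes differed between the lines one by one. Cdh1, which encodes E-cadherin, read 522 in MetE14/3, 45.2 in WTE14/1, and 3816 and 7390.1 on MMH-D3 arrays 1 and 2 (3.74). Dsg2, a desmosomal cadherin, read 814 in MetE14/3, 24.1 in WTE14/1, and 1403 and 2488 on MMH-D3 arrays 1 and 2 (5.15), with all 6 probe sets higher in MetE14/3. Ocln, the tight junction protein occludin, read 97.4 in MetE14/3, 1.27 in WTE14/1, and 145 and 507 on MMH-D3 arrays 1 and 2 (4.34). For Cdh1, Dsg2 and Ocln WTE14/1 was the dim array and MMH-D3 array 2 the bright one. A second, dimmer Ocln probe set read 26.9 in MetE14/3 and 19.5 in WTE14/1 (0.78). Epcam, an adhesion protein of epithelial progenitors, was dim in both lines at 39 in MetE14/3 and 8.56 in WTE14/1 (2.04). Cdh3, which encodes P-cadherin, went the other way with 3.60 in MetE14/3, 118 in WTE14/1, and 110.0 and 108 on MMH-D3 arrays 1 and 2 (-3.82), and so did Cldn6 (-7.23) and Cldn4 (42 in MetE14/3 and 193 in WTE14/1, -1.96). The cadherin-binding catenins Ctnna1 and Ctnnb1 differed by 0.12 and 0.40, and the scaffold Tjp1 by 0.03, so their signals were nearly level. Over the adherens junction and desmosome list 4 of 18 genes past the filter were at least 4-fold higher in MetE14/3 and 1 in WTE14/1, with a median of 0.34; over the tight junction list 1 of 16 was higher in each line, with a median of 0.63.

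Apical and keratin genes leaned to MetE14/3. Of 17 polarity and apical genes 4 were at least 4-fold higher in MetE14/3 and none in WTE14/1 (median 0.66, and -0.71 between the MMH-D3 arrays). Prom1, the apical glycoprotein prominin, read 139.5 in MetE14/3, 4.07 in WTE14/1, and 15.8 and 56.7 on MMH-D3 arrays 1 and 2 (4.32). Myo5b, a motor that recycles apical vesicles, read 76.8 in MetE14/3, 2.53 in WTE14/1, and 599 and 444 on MMH-D3 arrays 1 and 2 (3.74, 2 of 3 probe sets of that sign). Prom1 was brightest in MetE14/3, while Myo5b was brightest in MMH-D3. The brush border protocadherin Cdhr5 differed by 2.63, and Crb3, a crumbs polarity protein, by -1.73. Among 8 keratins the median was 0.83 and 2, Krt20 and the basal keratin Krt14 (23.6 in MetE14/3 and 3.27 in WTE14/1, 2.17), were at least 4-fold higher in MetE14/3. Dimmer probe sets of Krt14 differed by 0.29 and 1.24. The simple keratins Krt8, Krt18 and Krt19 differed by 1.17, 0.48 and 1.36, and Krt18 was among the brightest of them at 9716 in MetE14/3, 8378 in WTE14/1, and 15301 and 16709.6 on MMH-D3 arrays 1 and 2. The repressors of epithelial genes were less far apart, with Snai1 at -0.59, Snai2 at -0.39, Zeb1 at 0.65 and Zeb2 at -1.02. Their list, transcription factors of the passage to a mesenchymal state, had a median of -0.39 over 7 genes, and -0.45 between the MMH-D3 arrays. None was 4-fold apart (5.02% of all genes). Past 2-fold were 2 towards WTE14/1 (9.12% of all genes) and none towards MetE14/3 (10.2%). The median kept its sign in 9 of 10 alternatives.

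Annexins, galectins and S100 calcium-binding proteins formed the list with the most members at least 4-fold apart. Of 29 genes past the filter 9 were at least 4-fold higher in MetE14/3 (2.82% of all genes) and none in WTE14/1 (2.2% of all genes), with a median of 0.64 against -0.20 between the MMH-D3 arrays. Besides Lgals4, Lgals2 and Anxa13 these were Lgals3bp, a secreted galectin ligand (827 in MetE14/3 and 82.1 in WTE14/1, 3.48), the S100 genes S100a13 (1154 in MetE14/3 and 192 in WTE14/1, 2.66), S100a16 (963 in MetE14/3 and 172 in WTE14/1, 2.58) and S100a1 (992 in MetE14/3 and 180.1 in WTE14/1, 2.55), Anxa8 (4189 in MetE14/3 and 843 in WTE14/1, 2.32) and Lgals3 (7630.2 in MetE14/3 and 1944 in WTE14/1, 2.02). The last 6 of these were well above the filter in WTE14/1 too, and S100a1, S100a13, S100a16, Anxa8 and Lgals3 differed by no more than 0.49 between the MMH-D3 arrays. S100a1 and S100a13 are neighbours on chromosome 3. S100a9 and S100a14, both dim in the lines, were higher in WTE14/1 by differences of -1.17 and -1.07.

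Liver transcription factors were divided between the lines. Of 18 past the filter 3 were at least 4-fold higher in MetE14/3 and 2 in WTE14/1, with a median of 0.55. Hnf4a read 205 in MetE14/3, 6.76 in WTE14/1, and 1049 and 1687 on MMH-D3 arrays 1 and 2 (4.48). All 4 of its probe sets were higher in MetE14/3, by differences from 0.55 to 4.48. Onecut2, a partner of HNF6 in biliary and hepatic fate, read 281 in MetE14/3, 15.7 in WTE14/1, and 143 and 1647 on MMH-D3 arrays 1 and 2 (4.11), though the MMH-D3 arrays themselves differed by -3.34. Foxa1, a pioneer factor of endoderm, read 568 in MetE14/3, 67.5 in WTE14/1, and 2.30 and 21.9 on MMH-D3 arrays 1 and 2 (3.24) and was bright in MetE14/3 above MMH-D3 as well. On the other side, Cebpa, which drives hepatocyte maturation, read 6.00 in MetE14/3, 105 in WTE14/1, and 107 and 290.0 on MMH-D3 arrays 1 and 2 (-3.22), so MMH-D3 lay with WTE14/1. Creb3l3, a liver stress and lipid regulator, read 5.90 in MetE14/3 and 54.5 in WTE14/1 (-2.23). Foxa2 and Gata6, 2 further endoderm regulators, were higher in WTE14/1 by differences of -1.61 and -1.75 and were brighter still in MMH-D3. Cebpb and the bile acid receptor gene Nr1h4 differed by 1.42 and 1.57 towards MetE14/3.

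**Figure D3:**
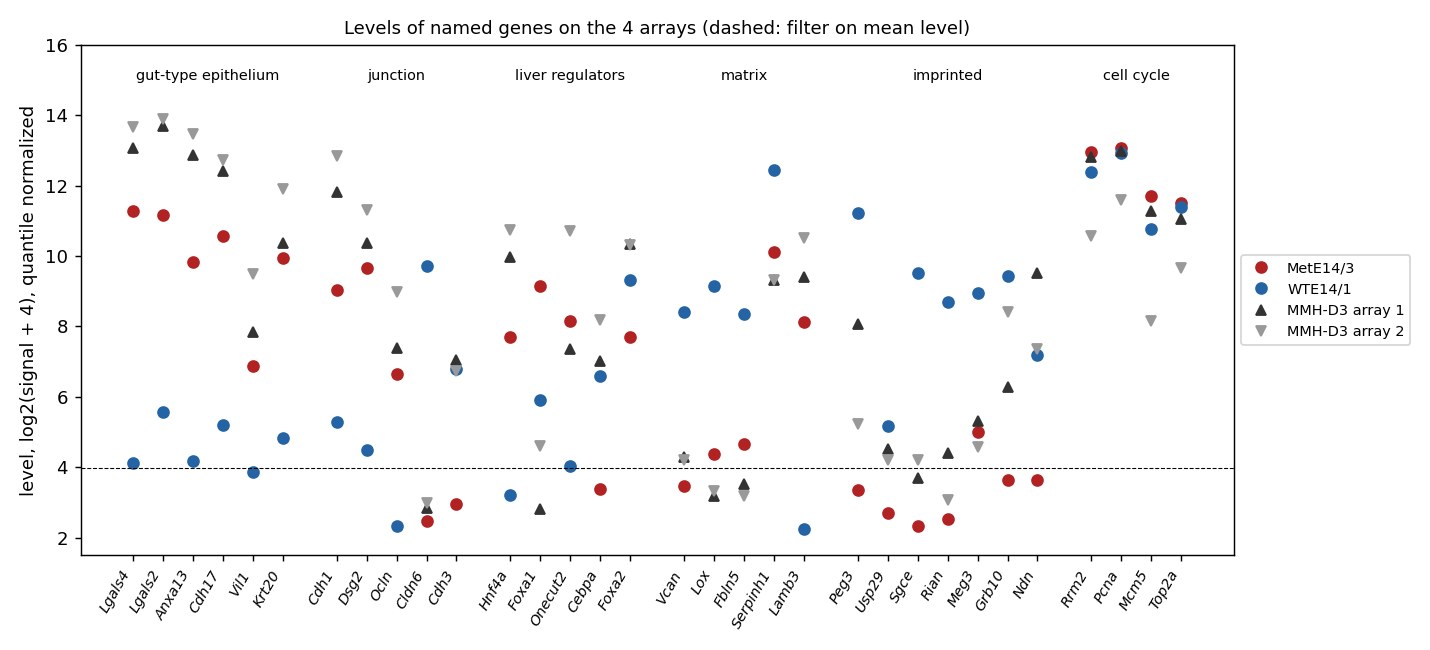
Levels, as log2(signal + 4) after quantile normalization, of named genes on the 4 arrays, grouped by role; each point is 1 array. MetE14/3 (red) lies between WTE14/1 (blue) and MMH-D3 (triangles) for Lgals4, Cdh1 and Hnf4a, WTE14/1 stands alone for Cldn6, Vcan and Sgce, and for Rrm2 and Mcm5 MMH-D3 array 2 stands apart.

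Secreted liver products were mostly dim in both lines, and 19 of 30 plasma protein genes with a probe set did not pass the filter. Rbp4, the retinol carrier, read 180.4 in MetE14/3, 31.2 in WTE14/1, and 4307 and 5702 on MMH-D3 arrays 1 and 2 (2.71), and Apob, the structural protein of very low density lipoprotein, read 77.4 in MetE14/3, 12.96 in WTE14/1, and 2879 and 4647 on MMH-D3 arrays 1 and 2 (2.50). Both were higher in MetE14/3 yet far dimmer there than in MMH-D3. A second, dimmer Apob probe set differed by 0.71. Itih2, a heavy chain of the inter-alpha-trypsin inhibitor, read 1.40 in MetE14/3, 161 in WTE14/1, and 54.7 and 352 on MMH-D3 arrays 1 and 2 (-4.76), and Hpx, the haem carrier, 0.7 in MetE14/3 and 21.6 in WTE14/1 (-2.12); these were higher in WTE14/1. Afp, the fetal counterpart of albumin, differed by -0.66 with only 2 of its 4 probe sets of that sign. Of 13 hepatocyte enzymes 9 were within 2-fold and none was at least 4-fold apart, where 9797 of 12147 and 5.02% of all genes were; Fah, of tyrosine breakdown, was at -1.78 and Glul, glutamine synthetase, at 1.16.

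Imprinted genes had the lowest median of the 48 gene lists. Of 30 with a probe set 17 passed the filter. 7 of these were at least 4-fold higher in WTE14/1 and none in MetE14/3, against 2.2% and 2.82% of all genes, and the median was -1.18, against 0.19 between the MMH-D3 arrays. Sgce, which encodes epsilon-sarcoglycan, read 0.9 in MetE14/3, 712 in WTE14/1, and 7.20 and 15.4 on MMH-D3 arrays 1 and 2 (-7.19). Peg3 differed by -7.87, with all 3 probe sets of that sign. Usp29, its neighbour on chromosome 7, read 2.30 in MetE14/3 and 41.8 in WTE14/1 (-2.48). On chromosome 12 the maternally expressed noncoding RNAs Rian and Meg3 are neighbours as well. Rian read 1.60 in MetE14/3, 420.1 in WTE14/1, and 13.6 and 4.60 on MMH-D3 arrays 1 and 2 (-6.17). Meg3 read 26.1 in MetE14/3, 499 in WTE14/1, and 27.4 and 21.1 on MMH-D3 arrays 1 and 2 (-3.95). Of the Meg3 probe sets 7 of 8 were of that sign. WTE14/1 was the only bright array for Sgce, Rian and Meg3. Grb10, an adaptor that restrains growth factor receptors, read 7.80 in MetE14/3, 674 in WTE14/1, and 59.6 and 344 on MMH-D3 arrays 1 and 2 (-5.78), and the neuronal gene Ndn read 7.70 in MetE14/3, 155 in WTE14/1, and 726 and 166 on MMH-D3 arrays 1 and 2 (-3.56), so for these MMH-D3 held signal and MetE14/3 was the dim array. Members with little difference were Gnas (-0.23), Igf2r (-0.29) and Mest (0.38), while Igf2, a fetal growth factor, read 33.3 in MetE14/3 and 85.95 in WTE14/1 (-0.99).

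Sgce also opened the only run of 3 analysed genes in chromosomal order that were all at least 4-fold apart in 1 direction, with Ppp1r9a at -2.09 and Pon3 at -2.18 on chromosome 6. The other runs were pairs of neighbours. With these pairs counted, 57 genes lay in 28 runs, 34 genes in 17 runs higher in MetE14/3 and 23 in 11 runs higher in WTE14/1. How many runs would arise from the shares of 2.82% and 2.2% of genes alone was not tested. Runs higher in MetE14/3 included the glutathione transferases Gsta4 and Gsta2 on chromosome 9, the keratins Krt14 and Krt16 on chromosome 11, and the lysosomal protease gene Ctsc with Rab38 on chromosome 7 (4.62 and 3.44). By chromosome, 5.15% of genes analysed on chromosome 1 were at least 4-fold higher in MetE14/3 and 0.993% on chromosome 16; the spread was not tested.

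Extracellular matrix genes of mesenchymal cells leaned to WTE14/1. Of 22 matrix glycoproteins and proteoglycans 4 were at least 4-fold higher there and 1 in MetE14/3 (median -0.47). Of 20 collagen and collagen-processing genes 4 were higher in WTE14/1 and none in MetE14/3, with a median of -0.27 that turned to 0.02 with the arrays shifted to a common median. Vcan, the proteoglycan versican, read 6.70 in MetE14/3, 348 in WTE14/1, and 12.4 and 15.5 on MMH-D3 arrays 1 and 2 (-4.92). Lox, the enzyme that crosslinks collagen and elastin, read 15.2 in MetE14/3, 567 in WTE14/1, and 3.90 and 6.36 on MMH-D3 arrays 1 and 2 (-4.77). Fbln5, an elastic fibre protein, read 19.3 in MetE14/3, 332 in WTE14/1, and 5.90 and 5.27 on MMH-D3 arrays 1 and 2 (-3.68). On these 3 the WTE14/1 array was bright and MetE14/3 was close to MMH-D3. The related crosslinking enzyme Loxl1 differed by -3.16, Col3a1 by -3.09 and the proteoglycan Ogn by -3.18. Serpinh1, the chaperone that folds collagen, was bright in both lines at 1102 in MetE14/3 and 5483 in WTE14/1 (-2.32). Other collagens went towards MetE14/3, among them Col6a3 (1.42), Col12a1 (1.33) and Col5a1 (1.10). The exception among the glycoproteins was Lamb3, a basement membrane laminin of epithelia, at 277 in MetE14/3, 0.937 in WTE14/1, and 672 and 1420.5 on MMH-D3 arrays 1 and 2 (5.87). Matrix proteases were split, with Adamts5 at -3.39 and the plasminogen activator Plau at 2.61. Both also differed between the MMH-D3 arrays, by -1.90 and 2.50.

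Several contractile genes were bright in both lines and dim in MMH-D3, with actin isoforms apart in opposite ways. Acta2, smooth muscle alpha-actin, read 1638 in MetE14/3, 8962 in WTE14/1, and 47.5 and 38.7 on MMH-D3 arrays 1 and 2 (-2.37), and Tagln, an actin-binding protein of smooth muscle, read 398 in MetE14/3, 1989 in WTE14/1, and 8.80 and 1.23 on MMH-D3 arrays 1 and 2 (-2.39). Actg2, the gamma isoform, read 1178 in MetE14/3, 97.5 in WTE14/1, and 8.90 and 4.87 on MMH-D3 arrays 1 and 2 (3.72), and Cnn1, calponin, read 72.2 in MetE14/3 and 19.6 in WTE14/1 (1.98). WTE14/1 was thus the brighter line for Acta2 and Tagln and MetE14/3 for Actg2 and Cnn1. The list of 19 genes had a median of 0.03 whose sign turned under 4 of 10 alternatives. Pericyte and stellate cell markers did not follow a single line: Pdgfrb was higher in MetE14/3 (248 in MetE14/3 and 65.8 in WTE14/1, 2.10), while Nes and Vcam1 differed by -1.06 and -1.40. Integrin subunits Itgb8 (17.6 in MetE14/3 and 505 in WTE14/1, -4.43) and Itgb7 (53 in MetE14/3 and 4.13 in WTE14/1, 2.99) pointed opposite ways.

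Some genes of cartilage and positional identity were brighter in WTE14/1 than in MetE14/3. Col11a1 and Col2a1, cartilage collagens, read 0.5 in MetE14/3 and 239 in WTE14/1 (-5.65) and 2.20 in MetE14/3 and 169 in WTE14/1 (-4.64). The homeobox genes Msx2 and Msx1 stood in opposite lines, with Msx2 at 12.6 in MetE14/3, 229.6 in WTE14/1, and 23.6 and 17.5 on MMH-D3 arrays 1 and 2 (-3.61) and Msx1 at 108 in MetE14/3, 6.76 in WTE14/1, and 42.7 and 38.03 on MMH-D3 arrays 1 and 2 (3.60). Sox9, which drives cartilage and bile duct programs, differed by -0.73 with 1 of 2 probe sets of that sign. Of 12 Hox genes past the filter, Hoxc6 (-2.53), Hoxa5 (-2.17) and Hoxa3 (-2.14) were at least 4-fold higher in WTE14/1 and none in MetE14/3. For these MetE14/3 was the dim array: Hoxa5 read 26.6 in MetE14/3, 156 in WTE14/1, and 59.7 and 98.6 on MMH-D3 arrays 1 and 2, and Hoxa3 read 3.80 in MetE14/3, 40.7 in WTE14/1, and 36.1 and 28.7 on MMH-D3 arrays 1 and 2. In all, 20 of the 32 Hox genes with a probe set were below the filter, and the list median of -0.27 turned to 0.16 without the filter. Sox11, a transcription factor of neural and mesenchymal progenitors, read 5.80 in MetE14/3, 1520.0 in WTE14/1, and 13.4 and 8.10 on MMH-D3 arrays 1 and 2 (-7.29), with all 6 probe sets higher in WTE14/1. Oncofetal and pluripotency genes held no member at least 4-fold apart, and 8 of 10 past the filter were within 2-fold. Of these 10 genes 10 were higher in WTE14/1, while 6028 of all 12147 genes were higher in MetE14/3. Hmga2, a chromatin protein of fetal growth, read 2858 in MetE14/3 and 5403 in WTE14/1 (-0.91). Igf2bp3, an RNA-binding protein of fetal tissue, differed by -0.84.

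Chemokine genes gave some of the widest gaps in both directions, and their list had no lean (median 0.04 over 22 genes, and -0.21 without further normalization), with 4 members past 4-fold towards MetE14/3 and 2 towards WTE14/1. Cxcl12 was the gene furthest apart of all autosomal genes, at -8.96. Ackr3, a scavenging receptor of the CXCL12 protein, read 271 in MetE14/3, 21.5 in WTE14/1, and 226 and 148 on MMH-D3 arrays 1 and 2 (3.72), so the ligand was bright in WTE14/1 and the scavenger in MetE14/3. Ccl2, which attracts monocytes, read 316 in MetE14/3, 3.07 in WTE14/1, and 3.50 and 20.3 on MMH-D3 arrays 1 and 2 (5.63) and was bright in MetE14/3 alone. Of the cytokine genes, Il1rn, the interleukin-1 receptor antagonist, read 374 in MetE14/3, 23.02 in WTE14/1, and 3139 and 3405 on MMH-D3 arrays 1 and 2 (4.10), and the receptor Il1r1 read 186 in MetE14/3 and 27.7 in WTE14/1 (2.90). Osmr, the oncostatin M receptor, read 9.50 in MetE14/3, 348 in WTE14/1, and 84.9 and 469 on MMH-D3 arrays 1 and 2 (-4.56). Oncostatin M promotes maturation of fetal hepatocytes, and the shared co-receptor gene Il6st differed by 0.23 only.

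Interferon-inducible genes were divided, with 3 of 23 at least 4-fold higher in MetE14/3, 2 in WTE14/1 and a median of -0.25. Ifi202b, a DNA-sensing family member whose expression is known to vary between inbred strains, read 541 in MetE14/3, 0.615 in WTE14/1, and 855 and 2695 on MMH-D3 arrays 1 and 2 (6.89). Ifi204, of the same family on chromosome 1, read 73.8 in MetE14/3 and 1.42 in WTE14/1 (3.92). Both were near background in WTE14/1 and present in MetE14/3 and MMH-D3. In the other direction were Ifih1, an RNA sensor (12.7 in MetE14/3 and 148 in WTE14/1, -2.93), and Ifitm3, a membrane restriction factor (24.9 in MetE14/3 and 211 in WTE14/1, -2.71). Among 8 class I antigen presentation genes none was 4-fold apart by its brightest probe set. H2-D1 differed by 1.36 in that probe set, and all 8 of its probe sets were of that sign, from 0.70 to 3.78. B2m differed by 0.50, with 1 of 2 probe sets of that sign. The strain of the embryos is not in the labels, so strain and line cannot be told apart.

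Of the TGF-beta and BMP genes 4 of 26 were at least 4-fold higher in MetE14/3 and 1 in WTE14/1, with a median of -0.30 that turned to 0.00 with the arrays shifted to a common median. Among ligands, Bmp4 read 1432 in MetE14/3, 233 in WTE14/1, and 77.1 and 122 on MMH-D3 arrays 1 and 2 (2.68). Among secreted antagonists of activin, Fstl3 read 422 in MetE14/3, 9.65 in WTE14/1, and 11.5 and 6.08 on MMH-D3 arrays 1 and 2 (5.19) and Fst, follistatin, 196 in MetE14/3, 1469 in WTE14/1, and 46.8 and 14.3 on MMH-D3 arrays 1 and 2 (-2.94). Both lines thus held Fst, above MMH-D3, and MetE14/3 alone held Fstl3. The co-receptor gene Tgfbr3 differed by 2.58, and the targets Id2 and Id3 by 2.10 and -1.65. Of 29 Wnt genes 15 were within 2-fold, a smaller share than over all genes, with 7 past 2-fold towards each line. The member at least 4-fold apart was Ror2, the receptor for Wnt5a, at 2.20 in MetE14/3 and 153 in WTE14/1 (-4.50). The target Axin2 was at -1.73 and the factor Tcf7l2 at 1.81. Of 15 Notch genes 12 were within 2-fold and none was 4-fold apart, close to the shares over all genes. The ligand Jag1 was at 0.99 by its brightest probe set, and at 2.00 and 2.19 by its dimmer ones. The receptors Notch2 and Notch3 were at 1.56 and -1.54.

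Among 37 receptor tyrosine kinases and ligands 5 were at least 4-fold higher in MetE14/3 and 2 in WTE14/1; the median of 0.19 turned to -0.01 without further normalization. Hgfac, the protease that activates HGF, read 91.5 in MetE14/3, 2.81 in WTE14/1, and 460.3 and 874 on MMH-D3 arrays 1 and 2 (3.94) and was thus present in MetE14/3 and MMH-D3. The EGF receptor family member Erbb3 (42.3 in MetE14/3 and 4.42 in WTE14/1, 2.67) and the ligand Btc (273 in MetE14/3 and 69.3 in WTE14/1, 2.16), together with Pdgfb (2.33) and Efna1 (2.77), were higher in MetE14/3. Gas6, a ligand of AXL, read 11.8 in MetE14/3 and 164 in WTE14/1 (-3.18) and Igf1 read 7.20 in MetE14/3 and 81.4 in WTE14/1 (-2.64), both higher in WTE14/1. Between the MMH-D3 arrays Gas6 differed by -2.40 and Igf1 by 2.15. IGF-binding protein genes were split: Igfbp3 and Igfbp2 differed by -2.90 and -2.43, and Igfbp4 by 2.46 in all 6 probe sets.

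Detoxification genes leaned to MetE14/3. Of 31 glutathione transferases and NRF2 targets 5 were at least 4-fold higher there and none in WTE14/1 (median 0.28). Gsta4, which conjugates lipid peroxidation products, read 4569 in MetE14/3, 292 in WTE14/1, and 10879 and 15677 on MMH-D3 arrays 1 and 2 (4.05). The others were Cbr1, a carbonyl reductase (2.49), Gsta2 (2.28), Gstm2 (2.16) and Mgst3 (3673 in MetE14/3 and 828 in WTE14/1, 2.16); closely related transferases can share probes. In lipid metabolism, Pparg, the regulator of fat storage, read 692 in MetE14/3, 87.3 in WTE14/1, and 483 and 933 on MMH-D3 arrays 1 and 2 (3.12), and Angptl4, a lipase inhibitor that PPAR factors induce, read 419 in MetE14/3, 12.2 in WTE14/1, and 708 and 518 on MMH-D3 arrays 1 and 2 (4.95). Of 19 cholesterol genes none was 4-fold apart and 18 were within 2-fold. Of 26 glycolytic and hypoxia-responsive genes 20 were within 2-fold, near the share over all genes, and those at least 4-fold apart were Pfkp, a phosphofructokinase (568 in MetE14/3 and 66.5 in WTE14/1, 3.27), and Ndrg1 (2818 in MetE14/3 and 306 in WTE14/1, 3.27); both also differed between the MMH-D3 arrays, by -1.96 and -2.21.

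Cell cycle genes were level between the lines and not between the MMH-D3 arrays. Of 29 DNA replication and S phase genes 28 were within 2-fold between the lines, and of 30 mitotic genes 29; over all genes 9797 of 12147 were. Their medians were 0.29 and 0.01 between the lines (the latter -0.18 with the median of each gene's probe sets) and 2.32 and 2.04 between the MMH-D3 arrays. Rrm2, a subunit of ribonucleotide reductase, read 7280.3 in MetE14/3, 5302 in WTE14/1, and 7518 and 1469 on MMH-D3 arrays 1 and 2, and Cdc20, an activator of the anaphase-promoting complex, read 4002 in MetE14/3, 4084 in WTE14/1, and 4504 and 1062 on MMH-D3 arrays 1 and 2. MMH-D3 array 2 was thus the dim array, and the lines lay close to array 1. On MMH-D3 array 1, 21 of the 29 and 16 of the 30 genes were at least 4-fold higher than on array 2. The yardstick therefore includes a difference in cell cycle genes that the lines do not share, and its part in the 722 genes apart between the MMH-D3 arrays was not tested. In the list of cyclins, inhibitors and p53 targets, Perp and Trp53inp1, targets of p53, were higher in WTE14/1 at -2.94 and -2.30. Between the MMH-D3 arrays Perp differed by -0.48 and Trp53inp1 by -3.88, which is further apart than between the lines.

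**Figure D4:**
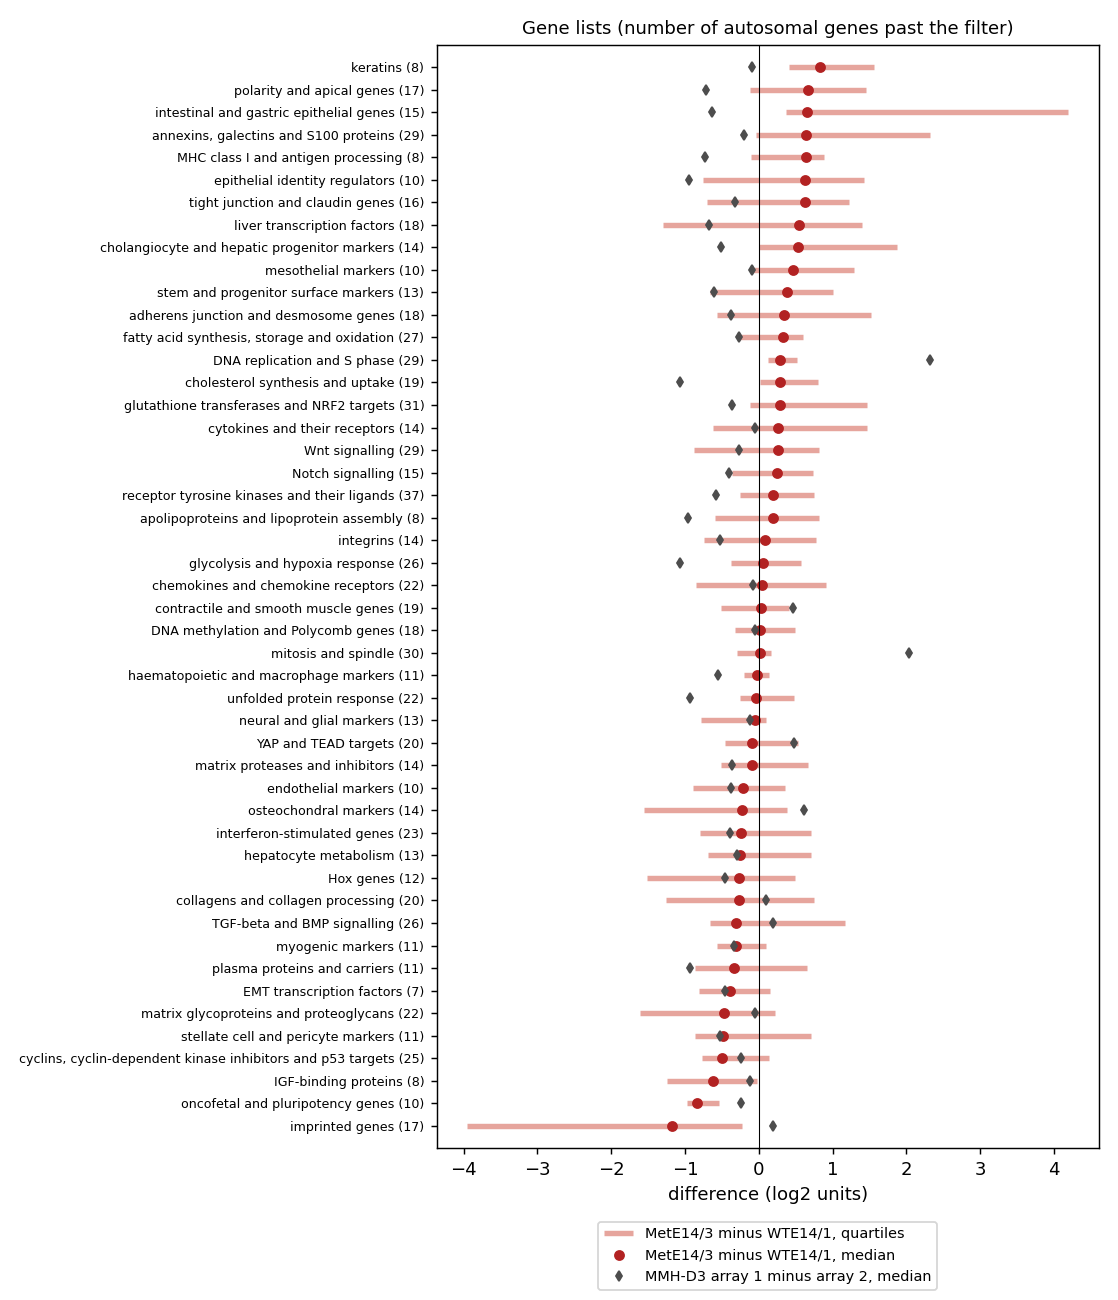
Gene lists ordered by their median log2 difference between MetE14/3 and WTE14/1 (red points, with bars for the quartiles over genes), and the median between the MMH-D3 arrays (grey diamonds); numbers in brackets are autosomal genes past the filter. Imprinted genes lie lowest at -1.18 and keratins highest at 0.83, and the replication and mitosis lists stand out only between the MMH-D3 arrays, at 2.32 and 2.04.

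Further genes outside these lists stood as far apart with the MMH-D3 arrays within 2-fold of each other. Hexa, which encodes a subunit of the lysosomal enzyme that breaks down gangliosides, read 1045 in MetE14/3, 23.5 in WTE14/1, and 1002 and 1032 on MMH-D3 arrays 1 and 2 (5.56). Ctsz, a lysosomal cysteine protease, read 0.6 in MetE14/3, 796 in WTE14/1, and 3191 and 2798 on MMH-D3 arrays 1 and 2 (-7.46, 3 of 3 probe sets of that sign). In each case 1 line was near background while the other line and MMH-D3 were bright. Mal, a proteolipid of apical transport, read 345 in MetE14/3, 4.69 in WTE14/1, and 32.8 and 29.5 on MMH-D3 arrays 1 and 2 (5.50), and Blnk, an adaptor of B cell receptor signalling, read 484 in MetE14/3, 8.94 in WTE14/1, and 17.9 and 18.2 on MMH-D3 arrays 1 and 2 (5.45), both brightest in MetE14/3. Myrf, a membrane-bound transcription factor, read 234 in MetE14/3, 3.56 in WTE14/1, and 1155 and 1417 on MMH-D3 arrays 1 and 2 (5.12), so MetE14/3 lay nearer to MMH-D3. The scavenger receptor gene Scara3 (5.04) and the matricellular gene Smoc1 (4.90) were bright in MetE14/3 alone. In WTE14/1 alone the small heat shock protein gene Hspb1 (29.9 in MetE14/3 and 1429 in WTE14/1, -5.37), the chloride channel accessory gene Clca3a1 (30.3 in MetE14/3 and 2155 in WTE14/1, -5.98) and Crmp1, a semaphorin response gene (1.40 in MetE14/3 and 247 in WTE14/1, -5.41), were bright. Psrc1, a spindle protein gene, and Ildr2, of the angulin family, differed by -5.69 and -5.02, and MMH-D3 held signal for both. From the neural list, Rgs20, a regulator of G protein signalling, read 999 in MetE14/3, 8.30 in WTE14/1, and 1250.3 and 340.3 on MMH-D3 arrays 1 and 2 (6.56), with MMH-D3 array 1 higher than array 2 by 1.83. Hmgn3, a nucleosome-binding protein gene named after its values were seen, was second to Cxcl12 at 3.90 in MetE14/3, 1956 in WTE14/1, and 119 and 14.6 on MMH-D3 arrays 1 and 2, and MMH-D3 array 1 was higher than array 2 by 3.01. Of 215 genes at least 4-fold apart that had several probe sets past the filter, all of these probe sets pointed the same way for 188. For 2 genes their median had the opposite sign. Probe sets below the filter do not enter these or the other probe set counts given here, and some of them pointed the other way.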

How the data were processed

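RNA was hybridized to Affymetrix Mouse430_2 arrays from 5 µg of total RNA and 15 µg of fragmented cRNA each, per the labels. The deposited values are probe set signals, a linear intensity that the authors made with GCOS, per the submitters' processing notes; its version is not given in the sources used here. Of 45101 probe sets 64 are controls, 34958 carried 1 gene symbol, 932 several and 9160 none in the platform annotation, and 34754 matched a RefSeq gene (GRCm38.p6) by Entrez identifier. Signals of the probe sets other than controls were taken as log2(signal + 4) and quantile normalized over the 4 arrays; the brightest probe set on average stood for each gene, if above the 40th percentile (log2 3.98). The precision is limited by the number of arrays, 1 for each line. Groups follow the sample titles.

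Genes named are the 15 furthest apart each way with MMH-D3 arrays within 2-fold and a probe set median of the same sign. Added to these were up to 3 members at least 4-fold apart of each of 48 lists (1181 genes, 795 analysed, 282 below the filter, 20 not autosomal). A further 22 genes were given, of which Ly6a had no probe set named here. Further list members, genes in runs and X-linked genes were named after their values were seen. The members and lists were chosen with earlier results of these data known. Alternatives were pseudocounts of 1 and 16, 2 other scalings, no filter or the 60th percentile, the median of a gene's probe sets, sex chromosomes included, each MMH-D3 array left out, 8-fold, and limma. The counting was tested on simulated data, and limma was not. Python 3.11.15, numpy 2.4.6, pandas 2.3.3, scipy 1.17.1, R 4.3.3 and limma 3.58.1 were used.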

Additional observations from a re-analysis of the deposited data

How the results depend on the processing

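Among the 133 genes that were run under the 10 alternatives no difference past 4-fold changed its direction. Those named as furthest apart each way were picked with a probe set median of the same sign. For them the alternative that uses this median could not change the direction, so it is no check on them. The other filters and the inclusion of sex chromosomes left the difference of a gene that passed as it was. The pseudocounts and the left-out MMH-D3 arrays kept the order of signals within an array, so a given probe set could not change direction. On direction the check for these genes thus rests mainly on the 2 other scalings. Pdxdc1 failed that condition and was not among the 133 genes. It differed by 6.73 as reported and by -1.61 when its probe sets were summarised by their median. Further, 29 of 48 list medians kept their sign in all 10. With a pseudocount of 16 the counts at 4-fold were 224 (MetE14/3) and 150 (WTE14/1) between the lines, 217 and 207 between the MMH-D3 arrays, and 392 towards WTE14/1 after the MMH-D3 difference was subtracted; both MMH-D3 arrays were nearer to MetE14/3 for 144 genes and nearer to WTE14/1 for 39, and with a pseudocount of 1 the latter were 169. With the filter at the 60th percentile there were 116 genes higher in WTE14/1, 74 of them with MMH-D3 within 2-fold and 55 with MMH-D3 nearer WTE14/1, 173 genes higher on MMH-D3 array 2, and 499 and 375 by the difference of differences; without a filter these last were 1163 and 1005. At 8-fold the counts were 133 and 96 between the lines, 55 and 93 between the MMH-D3 arrays, 80 and 60 with MMH-D3 within 2-fold, and 318 and 178 by the difference of differences. The other counts were within 1.5 times the reported ones. With either MMH-D3 array left out of normalization and filter, 335 to 345 genes were higher in MetE14/3 and 267 to 289 in WTE14/1. A limma fit whose only spread is that of the MMH-D3 arrays, with 1 residual degree of freedom, called 0 genes (smallest adjusted p = 0.112), with 556 at an unadjusted p under 0.05; it assumes that the lines vary as MMH-D3 does and does not show that they were alike. No paired analysis was possible because the lines carry no replicate numbers and have 1 array each. Differences at signals near 11.7, the filter, rest on 1 bright array, and no detection calls were used.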

Other observations

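Genes of the X chromosome stood outside the autosomal count. Of 387 past the filter 10 were at least 4-fold higher in MetE14/3 and 23 in WTE14/1, together 8.53%, against 27 genes (6.98%) between the MMH-D3 arrays. Several genes of the Bex, Armcx and Tceal families, which lie close together on the X chromosome and are rich in neural tissue, were higher in WTE14/1. Bex1 read 3.00 in MetE14/3, 906 in WTE14/1, and 138 and 39.2 on MMH-D3 arrays 1 and 2 (-7.03), and Armcx4 read 1.00 in MetE14/3, 312 in WTE14/1, and 23 and 8.15 on MMH-D3 arrays 1 and 2 (-5.89). Bhlhb9, of the Armcx family, differed by -6.07, Bex4 by -4.36, Armcx1 by -4.04, Armcx3 by -3.70 and Tceal8 by -3.43. On the other side, Nap1l2, a neuronal nucleosome assembly gene, read 674 in MetE14/3, 4.77 in WTE14/1, and 24.3 and 27.5 on MMH-D3 arrays 1 and 2 (6.43). The interleukin-13 receptor gene Il13ra1 differed by 5.00, with 5 of 5 probe sets of that sign. Xist, the RNA that coats an inactive X chromosome, read 1361 in MetE14/3, 17.4 in WTE14/1, and 3.90 and 25.5 on MMH-D3 arrays 1 and 2 (6.27), so MetE14/3 was the only array on which it was bright. The sex of the embryos is not in the labels.

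Among 3142 probe sets past the filter without a gene name here, 43 were at least 4-fold higher in MetE14/3 and 51 in WTE14/1 (2.99%), against 162 (5.16%) between the MMH-D3 arrays. Pdxdc1 differed by 6.73 in 1 probe set while the median of its 4 probe sets was -1.61.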
